A study of Homo sapiens with 12 samples.

Results

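In KYSE150 cells, 854 regions of open chromatin had an ATAC-seq peak in every control library and in no library of cells in which HCP5 was silenced. They were selected on the measured peak heights: peaks of height 3 or more from the 6 KYSE150 libraries were merged on chromosomes 1 to 22 where they overlapped by at least 1 bp, and a region was kept when all 3 control libraries and none of the 3 silenced libraries had such a peak. The 854 lost regions were 0.738% of 115693 merged regions. The height is the deposited pileup, a signal at the summit of a peak, given in whole numbers. Since this contrast chose the regions, their presence and height in KYSE150 are given as a description, with no test.

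KYSE150 and KYSE510 are established human oesophageal squamous cell carcinoma lines, both grown in RPMI medium with fetal bovine serum. Each line had 3 control libraries and 3 libraries labelled as HCP5 silenced, 12 in all, made from transposed nuclei (TruePrep kit) and read from both ends of each fragment on an Illumina NovaSeq instrument. The labels do not give how HCP5 was silenced, what the control cells received, or whether the 3 libraries of a group came from separate cultures, so p-values measure only the spread between these libraries. ATAC-seq does not measure RNA, and the level of HCP5 was not checked here.

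In ATAC-seq, a transposase cuts and tags DNA that is not packed into nucleosomes. Open sites lie mainly at promoters, which are open in many cell types, and at distal elements such as enhancers, which differ more between cell types. HCP5 is a long non-coding RNA transcribed from the major histocompatibility complex, and the title of the series links it to apoptosis and to c-Myc transcription through UTP3, a nucleolar protein.

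Most lost regions lay away from gene starts, and the sequences shown are therefore limited to a few of the promoters among them. Of 21041 promoter windows of RefSeq genes (GRCh38.p14, 250 bases before to 50 after a start), 26 overlapped a lost region. Of the windows shown, that of SEPTIN9, a cytoskeletal septin, and that of INO80B, a subunit of the INO80 chromatin remodeller, belong to the 12 lost regions with the highest control peaks. The window of SLC39A2, a zinc transporter, had strong peaks in every KYSE510 library. The window of TMSB10, which encodes an actin-sequestering thymosin, held the most GC-box matches of the 5 shown. UTP25 encodes a factor of the small subunit processome, the nucleolar machine in which UTP3 also works. Each sequence is the 250 bases before the start, read 5′ to 3′ on the gene's strand, and capitals mark matches to any motif searched.
SEPTIN9 (chr17:77287685-77287934, plus strand): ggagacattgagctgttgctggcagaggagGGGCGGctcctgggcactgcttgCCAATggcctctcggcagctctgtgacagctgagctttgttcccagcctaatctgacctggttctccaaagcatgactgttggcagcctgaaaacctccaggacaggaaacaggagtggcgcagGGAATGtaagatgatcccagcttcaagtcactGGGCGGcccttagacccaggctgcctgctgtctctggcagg
INO80B (chr2:74454837-74455086, plus strand): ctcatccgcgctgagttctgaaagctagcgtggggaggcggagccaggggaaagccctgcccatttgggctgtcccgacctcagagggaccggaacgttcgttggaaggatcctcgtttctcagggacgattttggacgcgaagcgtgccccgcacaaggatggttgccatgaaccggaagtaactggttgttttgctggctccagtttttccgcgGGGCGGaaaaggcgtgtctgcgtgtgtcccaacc
SLC39A2 (chr14:20999043-20999292, plus strand): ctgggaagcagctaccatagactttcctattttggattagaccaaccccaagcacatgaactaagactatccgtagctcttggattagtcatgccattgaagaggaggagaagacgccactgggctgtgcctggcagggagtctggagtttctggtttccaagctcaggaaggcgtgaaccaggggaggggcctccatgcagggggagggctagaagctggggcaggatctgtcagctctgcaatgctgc
TMSB10 (chr2:84905406-84905655, plus strand): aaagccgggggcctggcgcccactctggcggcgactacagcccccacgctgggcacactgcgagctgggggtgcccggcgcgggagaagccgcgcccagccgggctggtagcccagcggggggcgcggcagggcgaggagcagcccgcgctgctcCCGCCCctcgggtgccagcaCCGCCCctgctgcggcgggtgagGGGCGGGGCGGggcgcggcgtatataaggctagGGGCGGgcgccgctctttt
UTP25 (chr1:209827722-209827971, plus strand): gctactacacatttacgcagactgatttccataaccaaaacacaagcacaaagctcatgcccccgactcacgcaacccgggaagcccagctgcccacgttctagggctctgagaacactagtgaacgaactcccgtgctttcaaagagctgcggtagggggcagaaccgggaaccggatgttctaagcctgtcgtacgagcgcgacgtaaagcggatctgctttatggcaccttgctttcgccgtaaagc

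The motifs searched on both strands were TGANTCA (AP-1), CACGTG (E-box), GGGCGG (SP/KLF), CCAAT (NF-Y), GGAATG (TEAD) and TGTTTAC (forkhead). In the 26 whole windows, GGGCGG occurred in 15 (57.7%, against 56.6% of all windows) and CCAAT in 8 (30.8% against 34.4%). TGANTCA occurred in 3 (11.5% against 6.09%), GGAATG in 3 (11.5% against 12.2%), CACGTG in 1 (3.85% against 8.22%) and TGTTTAC in 0 (against 2.87%). With 26 windows, 1 window is 3.85%, so these shares are coarse. The median GC content was 61.8% in the 26 windows and 62.7% in all windows. A match is a description of the letters and not evidence of binding.

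The libraries of a line differed in depth-related measures. Read numbers were not used here, so depth is unknown, and the implied background (the lowest local height expected by chance that most peaks share) stands in for it. It was 0.101 to 0.103 in KYSE150 control, 0.0826 to 0.108 in KYSE150 silenced and 0.180 to 0.217 in all KYSE510 libraries. KYSE150 control libraries had 60374 ± 1499 peaks of height 3 or more (mean ± SD, n = 3) and silenced libraries had 56063 ± 4276. The difference of -4311 peaks gave a two-sided exact permutation p of 0.2 (0.45 after Benjamini-Hochberg adjustment over 3 tests), and 3 libraries against 3 cannot go below 0.1. Silenced replicate 3 had the fewest peaks (51492) and the lowest background. Without it the difference was -2025.5 peaks. At genes of 13 squamous epithelial markers, 2 to 6 had a peak of height 10 or more within 1 kb in a KYSE150 library and 6 to 9 in a KYSE510 library. KRT14 and TP63 had none in any library of either line. Of 8 immune markers 0 were marked in KYSE150 and at most 1 in KYSE510, and of 6 endothelial markers 0 were marked in either line. Of 6 fibroblast markers, 0 to 2 were marked in KYSE150 and 2 in each KYSE510 library, and of 7 neural and hepatic markers, 0 to 1 and 1 to 2.

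The 854 lost regions outnumbered the 324 regions with a peak in all 3 silenced and no control library. The other 18 ways to choose 3 of the 6 libraries mix controls and silenced libraries, and they serve as a reference for how many regions any 3 libraries alone share. These mixed groupings gave 244 to 736 regions, with a median of 464. Groupings with 2 control libraries gave 385 to 736 regions (median 544), and those with 1 control library gave 244 to 540 (median 353). The counts stood beside differences in the number of peaks between libraries. Control replicates 2 and 3 with silenced replicate 2 gave 736 regions and had 182389 peaks of height 3 or more between them, against 181122 in the 3 controls and 168189 in the 3 silenced libraries. Every grouping that included silenced replicate 3 gave 244 to 487 regions, and every grouping without it gave 441 to 854. The part of depth in the number of lost regions was not tested.

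**Figure D1:**
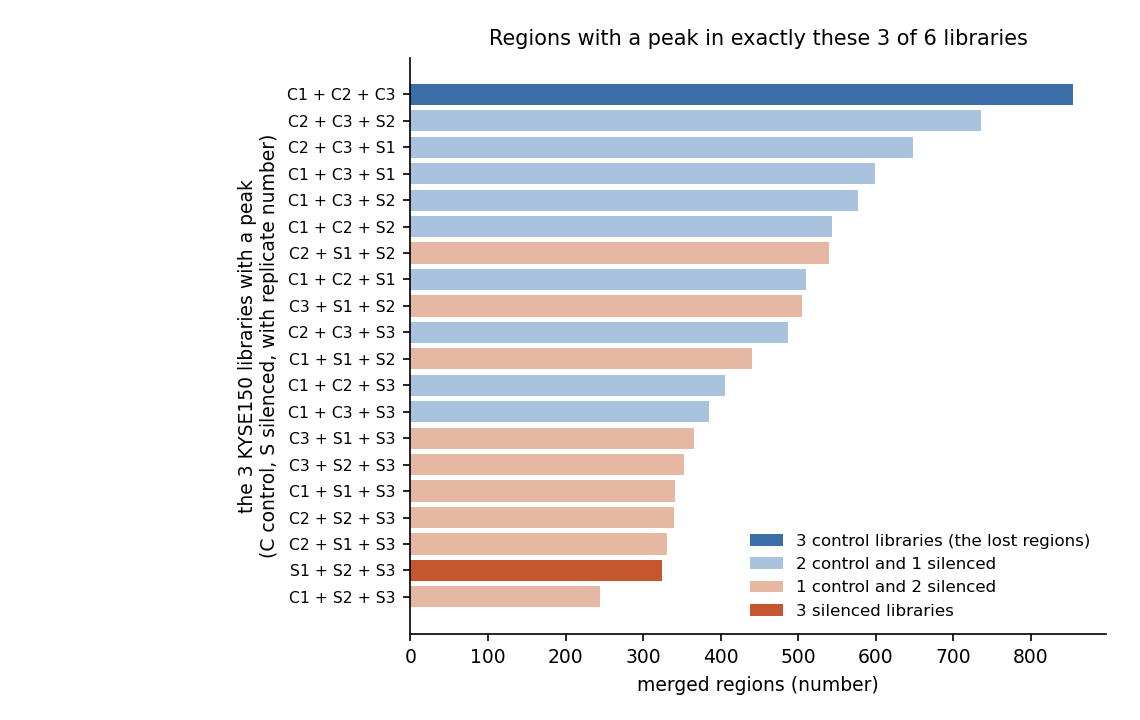
Number of merged KYSE150 regions (x axis) with a peak of height 3 or more in exactly the 3 libraries named on the y axis and in none of the other 3. The bar of the 3 control libraries reaches 854, that of the 3 silenced libraries 324, and the 18 mixed bars lie between 244 and 736.

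Most lost regions were low. The median height was 4 in each of the 3 control libraries, with means of 4.24, 4.29 and 4.35, whereas regions called in all 6 libraries had a median of 10, 10 and 11 in the same libraries. At those shared regions the silenced libraries also had lower mean heights, 12.2, 11.8 and 10.0 in replicates 1 to 3, against 12.8, 13.03 and 13.6 in the controls, and the part of this in the lost regions was not tested. In 627 of the 854 regions (73.4%) the lowest control peak had a height of 3, the minimum of the rule. In 143 it was 4, in 53 it was 5, and 84 regions (9.84%) had 5 or more in every control library. The share with 5 or more was 7.41% in the silenced-only regions and 5.33 to 11.1% in the mixed groupings, so the lost regions lay within the range of regions shared by any other 3 libraries. In 754 regions (88.3%) the deposited FDR was at most 0.05 in all 3 control libraries, against 95.7% of regions called in all 6. The median width was 390 bp, against 608 bp for regions called in all 6.

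The rule's edge was crowded. Beside the 627 regions with a lowest control height of 3 lay 858 regions with all 3 controls called and a single silenced peak of height 3, just outside the rule. Of these, 4 with a lowest control height of 7 are named. One lay at 7:46257853-46258394, 336581 bp from IGFBP3 (controls 8, 9 and 7, silenced replicate 2 at height 3). The others were at 1:241837794-241838317 near EXO1 (controls 7, 10 and 7, silenced replicate 3 at height 3), at 1:248622492-248622991 near OR2T11 (controls 7, 9 and 7, silenced replicate 2 at height 3) and at 2:28359127-28359760 near BABAM2 (controls 7, 8 and 9, silenced replicate 1 at height 3).

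A lost region was often not empty after silencing. Peaks below height 3 are also deposited for KYSE150, and 642 of the 854 regions (75.2%) had a lower peak in at least 1 silenced library. In 245 regions (28.7%) all 3 silenced libraries had one, and in 48 all 3 had a height of 2, just below the minimum of the rule. Silenced replicate 1 had a peak of height 1 at 223 regions and of height 2 at 251, replicate 2 at 175 and 242, and replicate 3 at 226 and 246. The remaining 212 regions (24.8%) had no listed peak in any silenced library. Of the silenced-only regions, 65.1% had a lower peak in at least 1 control library.

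**Figure D2:**
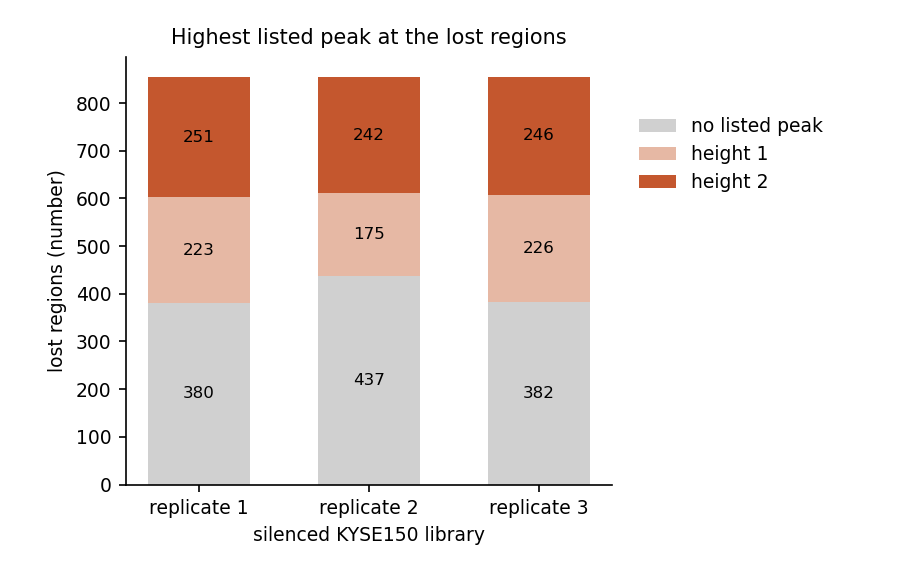
Number of the 854 lost regions (y axis) by the highest peak listed there in each silenced KYSE150 library (x axis). Between 380 and 437 regions had no listed peak in a library, and 242 to 251 had a peak of height 2.

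Absence from a list is not a height of 0. The lists end at a p-value of 0.01, and the deposited p-values of all peaks that could be checked, 112225 to 603828 per library, matched a Poisson tail at the peak's own background, so a height that is listed at one place can go unlisted where the background is higher. At each region's own control background (median 0.180 height units), a peak had to reach at least 2 to be listed in 580 regions, and at least 3 in 95 of these. The 212 regions with no listed silenced peak had a median control background of 0.367. In 89 of them a peak below a height of 3 would not be listed at the region's own control background. The 245 regions with a lower peak in all silenced libraries had a median of 0.147, and in 0 of them was a height of 3 needed. The backgrounds of the silenced libraries were not used here and can differ. Near FOXL2 a height of 3 was needed at the control background, yet silenced replicate 3 had a listed peak of height 2. Whether background accounts for the missing peaks was not tested.

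The 12 lost regions with the highest lowest-control peaks had no listed peak in any silenced library, and all of them lay where the control background was raised, at 0.727 to 3.43 height units. The tallest, at 13:109275912-109276432, had heights of 14, 18 and 17 in control replicates 1 to 3. It lay 67907 bp from MYO16, an unconventional myosin. At its control background of 3.43, a peak below a height of 8 would not be listed. The background of the silenced libraries there is not known. KYSE510 had a peak there in 2 libraries, of height 7 in control replicate 1 and 8 in silenced replicate 1.

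Among chromatin and transcription genes, the region in KDM6B, a demethylase that removes repressive methyl groups from histones, lay at 17:7841439-7842024 with control heights of 9, 9 and 8. The region over the start of INO80B, at 2:74454790-74455122, had 13, 10 and 8. The region in TAF1D, a subunit of the factor that loads RNA polymerase I at ribosomal DNA, lay at 11:93740109-93740414 with 7, 9 and 11. In KYSE510 these 3 regions had peaks in both treatments at KDM6B (11, 0 and 9 in control and 0, 11 and 9 in silenced replicates 1 to 3) and at INO80B (11, 0 and 13, then 0, 9 and 0), while TAF1D had a single peak of 7 in control replicate 1. Here and in later sentences on heights, 0 means that no peak of height 3 or more was listed.

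Among cytoskeleton and junction genes, the region in SEPTIN9 at 17:77287683-77287988 had 11, 9 and 9 in the KYSE150 controls. It covers all 250 bases of the promoter sequence printed for an internal start of that gene. The region in TJP1, the tight junction scaffold ZO-1, lay at 15:29920601-29920854 with 8, 8 and 10. KYSE510 peaks at SEPTIN9 were 15, 13 and 0 in control and 0, 0 and 11 in silenced libraries, and those at TJP1 were 0, 0 and 0, then 0, 11 and 11. Neither pattern separated the treatments.

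Among metabolic and lysosomal genes, the region in SLC16A1, the lactate transporter MCT1, lay at 1:112955291-112955609 with 7, 7 and 7. The region 5500 bp from ALDH3A1, an aldehyde dehydrogenase, lay at 17:19753798-19754128 with 7, 8 and 9. The region 570 bp from CTSC, the lysosomal protease cathepsin C, lay at 11:88338306-88338682 with 14, 8 and 13. Its control background of 0.727 was the lowest of the 12, and a peak of height 3 would be listed at that background. The region in MPDU1, needed for the use of dolichol-linked mannose, lay at 17:7586706-7587061 with 9, 10 and 9. In KYSE510, CTSC had a peak in every library, with heights of 13, 10 and 10 in control and 10, 16 and 10 in silenced replicates. ALDH3A1 had 12, 8 and 0, then 12, 8 and 12, SLC16A1 had a single peak of 7 in silenced replicate 2, and MPDU1 had none. The regions of ZSWIM1 (20:45885004-45885288, control heights 9, 12 and 8) and near ANKRD10 (13:110942303-110942965, 8, 8 and 10) completed the 12, and each had KYSE510 peaks in both treatments.

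**Figure D3:**
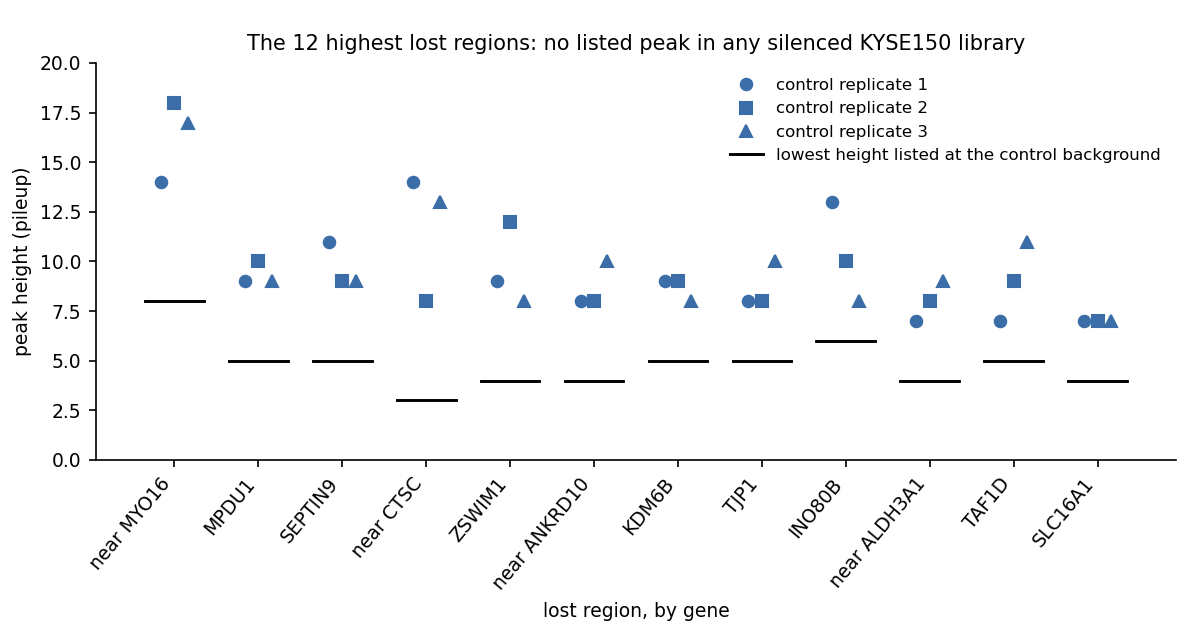
Peak height (y axis) in each of the 3 KYSE150 control libraries at the 12 lost regions with the highest lowest-control peaks (x axis, by gene). Black bars give the lowest height that a list would hold at the mean control background of the region, from 3 near CTSC to 8 near MYO16, and the silenced libraries had no listed peak at any of the 12.

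Lost regions were mostly distal. Distance was measured to the nearest end, at either side, of a protein-coding gene. Of the 854 regions, 73 (8.55%) lay within 1 kb of a gene end, 191 at 1 to 10 kb, 256 at 10 to 50 kb and 334 (39.1%) beyond 50 kb. The share within 1 kb was 12.02% of the regions lost at a height minimum of 4 and 17.2% at a minimum of 5. The share beyond 50 kb was 29.3% in the silenced-only regions, 32.1% in the mixed groupings together and 25.3% in regions called in all 6. The single mixed groupings ranged from 26.8 to 37.1%, so the share in the lost regions was the highest of the 20 groupings. The share inside a gene body, 47.7%, was the lowest of the 20, with 49.6 to 57.9% in the mixed groupings and 55.6% in the silenced-only regions. The share within 1 kb of a gene end, in contrast, lay inside the range of the mixed groupings, 7.65 to 13.6%. The groupings share libraries, and no test was made of these orders.

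**Figure D4:**
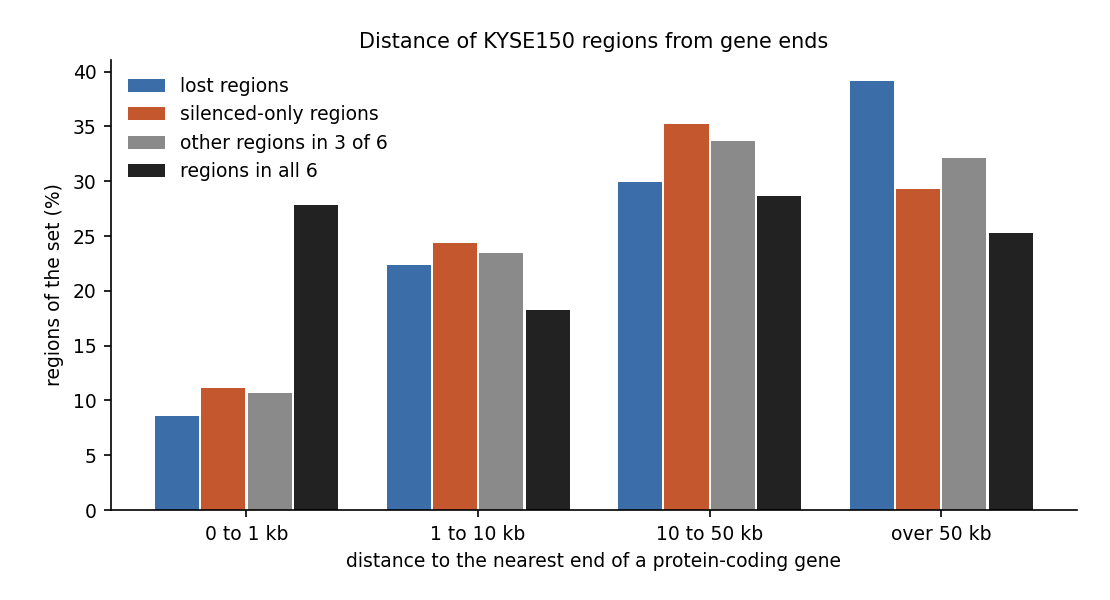
Share of regions (y axis, percent) by distance to the nearest end of a protein-coding gene (x axis) for the 854 lost regions, the 324 silenced-only regions, the 8353 other regions called in 3 of 6 libraries and the 26434 called in all 6. Of the lost regions 39.1% lay beyond 50 kb and 8.55% within 1 kb, against 25.3% and 27.9% of regions called in all 6.

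The share near genes differed between height classes, with no test made. Within 1 kb of a gene end lay 41 of 627 regions (6.54%) with a lowest control height of 3, 15 of 143 (10.5%) with 4, 12 of 53 (22.6%) with 5 and 5 of 31 (16.1%) with 6 or more. Every chromosome from 1 to 22 had lost regions. Per 1000 merged regions there were 10.7 on chromosome 18, 10.2 on chromosome 4 and 9.74 on chromosome 13, and 3.28 on chromosome 19 and 3.69 on chromosome 22. These 5 chromosomes were picked after their values were seen. Chromosomes 4, 13 and 18 held 11.01% of the lost regions, 7.10% of the silenced-only regions and 5.14 to 10.6% of those in the mixed groupings. Chromosomes 19 and 22 held 2.22%, 7.72% and 3.68 to 7.25%. With 12 lost regions on chromosome 19 and 7 on chromosome 22, these shares rest on few regions.

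Few lost regions lay together. When regions up to 100 kb apart were joined, the 854 formed 816 runs, of which 34 held more than 1 region, 72 regions in all. A run of 4 lay at 7:30091416-30308770 over PLEKHA8, MTURN and ZNRF2, among 27 merged regions of which 7 were called in all 6 libraries. The other run of 4 lay at 9:119284119-119376377 near BRINP1, where 4 of 5 merged regions were lost and none was called in all 6. A region called in all 6 libraries lay within 10 kb of 234 lost regions (27.4%), against 36.4% of the silenced-only regions and 31.7% of the other regions called in 3 of 6. A silenced peak of height 3 or more lay within 1 kb of 96, 105 and 79 lost regions in silenced replicates 1, 2 and 3.

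Lost regions were then counted at genes of pathways tied to the study or to squamous carcinoma. Of 19126 protein-coding genes, 610 (3.19%) had a lost region in the body or within 10 kb, and 0.738% of all merged regions were lost. The axis named in the title had 0 of 4 genes with a lost region and the MYC network had 0 of 25. Of 39 apoptosis regulators 1 had one, the death receptor gene TNFRSF10B (8:23041912-23042655, control heights 6, 4 and 4). Silenced libraries had lower peaks of 1, 1 and 2 there, and KYSE510 had peaks in 2 control and 2 silenced libraries. Of 25 MYC target genes 1 had one, EIF4A1, by the region at MPDU1. Of 39 small subunit processome genes 3 had one. At the start of UTP25 (1:209827729-209828410) the control heights were 3, 5 and 3, with lower silenced peaks of 2, 2 and 1. RCL1 (9:4831101-4831375) had 4, 4 and 3, and PDCD11 (10:103451174-103451713, 4880 bp away) had 3, 4 and 3, with no listed silenced peak at either. In KYSE510 the UTP25 and PDCD11 regions were marked in both treatments, with heights of 11, 7 and 8 in control and 9, 0 and 7 in silenced libraries at UTP25, and of 15, 13 and 8, then 9, 9 and 11 at PDCD11.

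Of 21 squamous lineage factors 3 had a lost region. SOX15, a SOX family factor, was counted through the region at MPDU1, 1117 bp away. GRHL3, a grainyhead factor of the epidermal barrier, had one 744 bp away (1:24365226-24365532) with 7, 4 and 5, and KYSE510 had 8, 14 and 11 in control and 10, 10 and 8 in silenced libraries there. OVOL1, a zinc finger factor of epithelial differentiation, had one 5901 bp away (11:65780698-65781162) with 4, 3 and 3. Of 11 hemidesmosome and laminin-332 genes 2 had one, the laminin chain LAMA3 (18:23822641-23822981; 4, 6 and 5) and the plakin DST (6:56851675-56852114; 3, 3 and 5). Both had listed lower peaks in silenced libraries, of 1, 2 and 2 at LAMA3 and of 1 and 2 in replicates 2 and 3 at DST. LAMA3 had no KYSE510 peak.

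Among receptors and ligands, 2 of 22 receptor tyrosine kinase genes had a lost region. In EGFR (7:55140633-55141260) the control heights were 3, 5 and 3, and near MET (7:116802822-116803076, 4445 bp) they were 4, 4 and 5. Of 22 Notch pathway genes 2 had one. The Notch ligand gene JAG2 had, by its lowest control peak, the tallest region at the list genes after that of MPDU1 (14:105165195-105165574), with 6, 8 and 8 in the KYSE150 controls. KYSE510 had 9, 14 and 12 in its controls there and 7, 0 and 0 in its silenced libraries, so 2 silenced libraries of that line also had no peak. NOTCH1 itself had one 5313 bp away (9:136551361-136551697) with 6, 3 and 4. Of 16 AP-1 factors 1 had one, the stress-induced ATF3 (1:212579932-212580670; 7, 3 and 12). The NRF2 pathway had 1 of 23 (ABCC1, a drug efflux pump), the YAP-TEAD pathway 1 of 22 (WWC1, a Hippo scaffold) and cell cycle regulators 1 of 26 (CCND3, a D-type cyclin). Epithelial-mesenchymal genes had 0 of 26 and interferon-stimulated genes 0 of 31. Longer genes meet more regions, and median gene length ran from 5074 bp in the title's axis to 83799 bp in the YAP-TEAD list, so the shares of different lists are not comparable.

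The second cell line gives a measurement that the rule did not use. Of the 854 lost regions, 736 (86.2%) had a peak of height 3 or more in at least 1 KYSE510 library, 218 (25.5%) in all 6 and 118 (13.8%) in none. With a KYSE150 minimum of 2, 4 or 5, the share in all 6 was 15.9, 34.9 or 44.1% of the regions then lost. The other regions called in 3 of 6 KYSE150 libraries had similar shares, 84.6% and 24.5%, as had the silenced-only regions, 83.6% and 22.2%. Regions called in all 6 KYSE150 libraries had 97.0% and 78.3%. The share with a KYSE510 peak in at least 1 library was 85.2% for the 627 lowest regions, while all 53 regions with a lowest control height of 5 and 30 of 31 with 6 or more had one.

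The number of these regions with a peak in KYSE510 did not differ between treatments beyond the spread of the libraries. KYSE510 control libraries had a peak at 520, 472 and 483 of the 854 regions, and silenced libraries at 448, 477 and 491. The groups overlapped, with means of 492 ± 25.1 and 472 ± 21.9 regions (SD, n = 3). The difference of -19.7 regions gave a two-sided exact permutation p of 0.5, also 0.5 after Benjamini-Hochberg adjustment over 3 tests. Counting only KYSE510 peaks of height 5 or more turned its sign, to 2 regions more after silencing (exact permutation p = 1). At the 324 silenced-only regions, KYSE510 had 169 ± 13.1 regions with a peak in control and 183 ± 10.6 in silenced libraries, 13.3 more after silencing (exact permutation p = 0.3, two-sided, adjusted 0.45). The signs at the 2 sets were opposite, but neither difference passed its test and the difference between the sets was not tested.

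**Figure D5:**
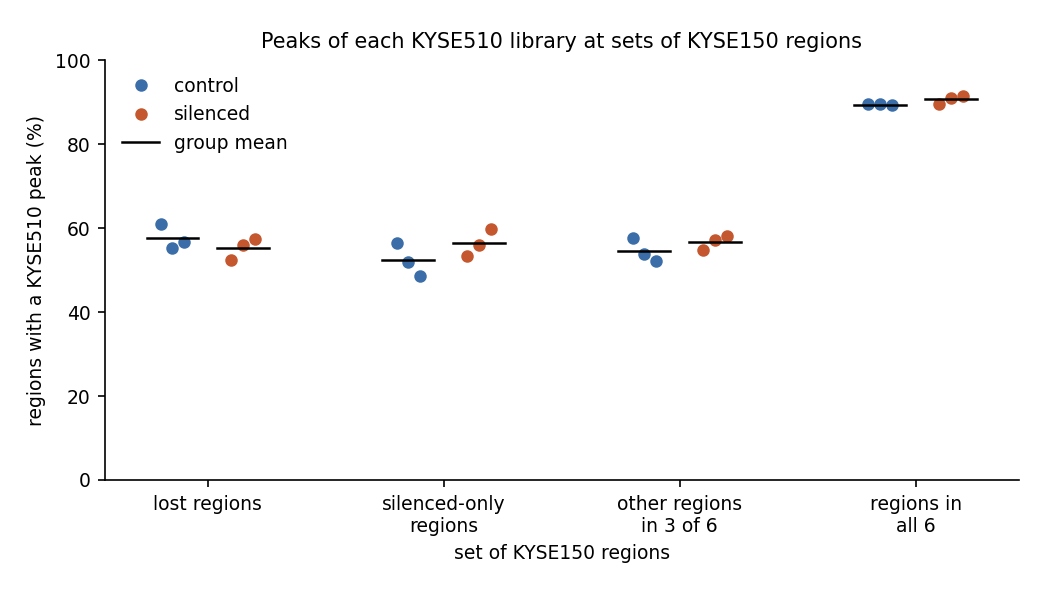
Share of regions (y axis, percent) with a peak of height 3 or more in each KYSE510 library, for 4 sets of KYSE150 regions (x axis); points are libraries and bars are group means. At the lost regions the control libraries lie between 55.3 and 60.9% and the silenced ones between 52.5 and 57.5%, so the groups overlap.

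The same pattern of presence in both lines was rare. Peaks in all 3 KYSE510 control and no KYSE510 silenced library were found at 5 of the 854 regions (0.585%), against 0.311% of all merged regions, 0.491% of the other regions called in 3 of 6 and 0.926% of the silenced-only regions. The reverse was found at 2 (0.234%), against 0.592%, 0.850% and 0.309% in the same sets. Both shares rest on few regions and were not tested. The 5 regions lost in both lines had control peaks of height 3 to 9. The region in HMGN2, a nucleosome-binding protein gene (1:26472928-26473331), had 5, 3 and 9 in KYSE150 and 9, 7 and 9 in KYSE510 controls. The region in PARN, a poly(A) ribonuclease gene (16:14489487-14489847), had 4, 3 and 4, then 5, 4 and 3. The region near SH3BGR (21:39518335-39518683) had 3, 6 and 3, then 6, 3 and 4. The region near DEFB131A, a beta-defensin gene (4:9495408-9495846), had 4, 3 and 4, then 4, 6 and 5. The region near SKIC8, a gene of the SKI complex in RNA decay (15:78317239-78317579), had 3, 3 and 4, then 4, 5 and 4. Of the 2 regions with the opposite pattern in KYSE510, that in TTYH3, a gene of the tweety family (7:2633152-2633643), had 7, 8 and 8 in KYSE150 control and 7, 8 and 8 in KYSE510 silenced libraries. That in PMM2, the gene of a phosphomannomutase (16:8828743-8829129), had 3, 4 and 3, then 5, 4 and 7.

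Several regions that were low in KYSE150 were among the highest of the set in KYSE510 by peak height. Heights of the lines are not on a common scale, since no values were normalised between libraries. The highest lay at 8:127949354-127950046, 206403 bp from MYC and over the non-coding gene PVT1, with KYSE150 control heights of 4, 3 and 3. Its KYSE510 heights were 130, 141 and 110 in control and 101, 171 and 141 in silenced libraries. The next were near LMCD1 (3:8444333-8444768; 57, 63 and 49, then 50, 42 and 45), in TENM4 (11:78800952-78801446; 61, 54 and 39, then 42, 52 and 41) and in CNTN5 (11:99952811-99953195; 35, 39 and 50, then 44, 63 and 51). At SLC39A2, whose upstream sequence is printed above (14:20998746-20999389), KYSE150 controls had 5, 5 and 5 and KYSE510 had 43, 36 and 26, then 41, 36 and 35. The silenced and control libraries of KYSE510 overlapped at each of these 5 regions. The order by height was not that by fold enrichment, given as the rank scores of the next paragraph. The region near MYC scored 1.27 to 1.74 over the KYSE510 libraries and that in TENM4 0.899 to 1.44. Scores were 2.40 to 3.32 near LMCD1, 1.91 to 3.17 in CNTN5 and 1.41 to 2.35 at SLC39A2.

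Where KYSE510 was called in every library, the strength of the peaks could be tested. Within each KYSE510 library the fold enrichment was ranked over 45090 regions and turned into normal scores, and limma compared the treatments. limma called 0 of the 45090 regions (0%) at an adjusted p under 0.05, with a smallest adjusted p of 0.136. At an unadjusted p under 0.05, 1547 (3.43%) were lower and 1794 (3.98%) higher after silencing. These included 231 regions that overlap lost regions, of which 0 were called, 10 (4.33%) were lower and 4 (1.73%) higher at an unadjusted p under 0.05. Their median change was -0.02 score units, as over all regions. These 231 are merged KYSE510 regions with a peak in all 6 KYSE510 libraries, so lost regions that touch no such region are left out. A lost region they touch need not itself have a peak in all 6. That in P2RY14, for example, had KYSE510 heights of 4, 0 and 0 in control and 8, 0 and 0 in silenced libraries. The lowest p was at 5:13338950-13339689, which overlaps a lost region 350702 bp from DNAH5, an axonemal dynein gene. The change there was -1.66 score units (SE 0.43, 3 libraries per group, adjusted p = 0.493 by limma). The region at 11:69630078-69630591 changed by -1.58 (limma adjusted p = 0.571). It overlaps a lost region 10735 bp from CCND1, the cyclin D gene of 11q13. KYSE510 heights at that lost region were 16, 6 and 10 in control and 7, 4 and 5 in silenced libraries. Between DNAH5 and CCND1 by p lay a region higher after silencing, at 6:36701416-36701901 by RAB44 (change 1.11, limma adjusted p = 0.570). The next by p after CCND1 was also higher, at 17:57739792-57740456 near CCDC182 (change 1.11, limma adjusted p = 0.571).

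Which regions counted as lost depended on the height minimum more than their number did. With a minimum of 2, 4 or 5 there were 1154, 682 or 571 lost regions, but 364, 227 and 84 of the 854 were among them. Raising the minimum drops regions with a control peak of 3 and admits regions with a silenced peak just below the new minimum. With an FDR of at most 0.05 in place of the height there were 1223 lost regions, including 418 of the 854. At each of these settings the 3 controls alone shared more regions than any mixed grouping, for example 1223 against 322 to 1031 at that FDR. Scaling the minimum by the implied background of each library left 440 lost and 375 silenced-only regions, with 101 to 1074 in the mixed groupings, so that the lost regions no longer stood above them. Since heights are whole numbers, this scaling moved the minimum from 3 to 4 in 3 libraries and is coarse. The 12 tallest regions were found at every one of these settings, except that of INO80B at the FDR. They were picked for lowest control heights of 7 or more and had no listed silenced peak. Their presence at the other height minimums was thus largely fixed by that choice and is no separate support.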

How the data were processed

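The authors deposited 1 peak list for each of 12 libraries. Per the submitters' processing notes, the tools were Trimmomatic 0.36, Bowtie2 2.2.6, Picard 2.8.2, MACS2 2.1.1 and bedtools 2.25.0 with build GRCh38, and their settings are not given in the sources used here. Per the file headers, the pileup is the deposited peak height (a signal at the summit, not a count over the peak). The deposited fold enrichment is a ratio of that height to a local background. Per the file headers, a p-value and an FDR accompany every peak, and the largest deposited p-value was 0.00987. The length of each peak is deposited too. No values were normalised between libraries as far as the lists show, so heights and numbers of peaks may differ with depth, which is unknown.

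Regions were merged, counted and compared in Python 3.11.15 (numpy 2.4.6, pandas 2.3.3, scipy 1.17.1, matplotlib 3.10.9). The local background of a peak was computed back from its fold enrichment and height. Numbers per library were compared by two-sided exact permutation tests. KYSE510 rank scores were compared with limma 3.58.1 in R 4.3.3 (lmFit, eBayes, Benjamini-Hochberg adjustment over all 45090 regions), a script tested on simulated data. Coordinates are those of merged deposited peaks, counted from 1. Gene names and distances came from a RefSeq gene table of GRCh38.p14 without strand or exons, so distances are to the nearest end of 20037 protein-coding genes, and exon, intron and UTR positions were not analysed here. Start sites and sequences covered 15843 of these genes, and none on chromosome 8.

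The regions, gene lists and tests were chosen with earlier results of these data known. Regions named are the 12 with the highest lowest-control height, those present on one side only in KYSE510, those at list genes, the 4 with the highest median KYSE510 height and the 4 just outside the rule with the highest lowest-control height (ties by control fold enrichment). SLC39A2, TMSB10 and the regions with the lowest limma p were picked after their values were seen. Alternatives covered the height minimum, the FDR, the merging overlap, the X and Y chromosomes, the peaks allowed in silenced libraries, a scaled minimum, left-out libraries and the replicate block.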

Additional observations from a re-analysis of the deposited data

How the results depend on the processing

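The number of lost regions stayed within 1.5 times of 854 at other height minimums, at the FDR, at both other merging overlaps (853 and 843) and with X and Y added (880). It moved by construction when no listed silenced peak was allowed (212, and 113 silenced-only regions) and when 1 opposing library was allowed (3165 and 1453). It fell to 440 with the scaled minimum, and the cause was not tested. Leaving out 1 library gave 1424 to 2268 lost and 647 to 1158 silenced-only regions, since fewer libraries have to meet the rule. The 2 counts then follow unlike rules. Without a control, a lost region needs 2 peaks and a silenced-only region 3, and there were 1992 to 2268 against 647 to 742. Without a silenced library this is reversed, and there were 1424 to 1733 against 961 to 1158. Mixed groupings were not counted for these runs. The number of silenced-only regions also moved at a minimum of 2 (552) and of 5 (136), the cause of which was not tested. The difference in KYSE150 peaks of height 3 or more ran from -6262 to -2025.5 with 1 library left out. The difference of lost regions with a KYSE510 peak ran from -29.5 to -5.5, and only a KYSE510 minimum of 5 reversed it, to 2. That of the silenced-only regions ran from 7.17 to 20.2. Over the height minimums and the FDR, 76.4 to 93.9% of lost regions had a peak in at least 1 KYSE510 library and 15.9 to 44.1% in all 6.

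limma called 0 KYSE510 regions in every alternative run, with smallest adjusted p values of 0.136 to 0.645. Of the regions overlapping lost ones, 6 to 11 were lower and 4 to 11 higher at an unadjusted p under 0.05. Same-numbered libraries deviated together only weakly (r of 0.0158 to 0.0659 in KYSE150 and 0.0368 to 0.0990 in KYSE510), so the number is not taken as a pairing, although all 3 controls of each line correlated best with their own number. With the replicate block, the differences were again -4311 peaks (exact sign-flip p = 0.25, the smallest possible), -19.7 lost regions (p = 1) and 13.3 silenced-only regions (p = 0.5), and limma called 0 regions, with 10 of the regions at lost ones lower and 7 higher at an unadjusted p under 0.05. Depth limits every statement on absence, since the lowest control peak of 627 lost regions was at the rule's minimum of 3.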
